A study of Homo sapiens with 7 samples.

Results

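The insulin-like growth factor (IGF) binding proteins IGFBP1 to IGFBP7 and PAPPA, a secreted metalloprotease that cuts several of them, were followed in HK-2, an immortalised cell line from the human renal proximal tubule. The members are the 8 rows, of 33694 genes in the deposited count table, that carry these gene symbols, and 5 of the 8 were among the 12404 genes with enough counts to be tested. They were chosen with their values in this same contrast known, so those values are given as a description, with no p-value for a member; where the text says which members were past the threshold of the fit over all genes, that too is a description. Both groups were grown in DMEM/F12 with serum, the supplement ITS, glutamine and antibiotics, were transfected with 50 nM siRNA by a lipid reagent (RNAiMAX), and were lysed after 96 h. The control group received a scrambled siRNA (4 libraries, replicates 1 to 4, whose genotype the labels give as WT), and the other received siRNA against GLUT2, a facilitative glucose transporter encoded by SLC2A2 (siGLUT2, 3 libraries, replicates 2 to 4). The labels call the libraries biological replicates, and all come from 1 cell line, so a p-value here reflects how much these libraries vary and may not cover other cells.

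IGF binding proteins hold IGF1 and IGF2 in the extracellular space, which limits or prolongs access to the IGF1 receptor. IGFBP1 to IGFBP6 bind IGFs tightly, while IGFBP7 binds them weakly and is known as a secreted marker of tubular stress. PAPPA cuts mainly IGFBP4 and IGFBP5 and so frees IGF near the cell, and the stanniocalcins STC1 and STC2 inhibit it.

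The libraries held between 5654957 and 8455963 counts. SLC2A2 had 13, 13, 7 and 17 counts in scrambled replicates 1 to 4 and 0 counts in each siGLUT2 library. Between 14844 and 15036 genes were detected in the scrambled libraries and between 13433 and 13891 in the siGLUT2 libraries, and mitochondrial transcripts made up 4.91 to 5.53% and 7.04 to 7.56% of counts. Of 8 proximal tubule markers, LRP2 and SLC22A6 were at 0 in every library and CUBN had 1 count in all, while GGT1, a brush border peptidase, had 34.1 to 45.2 CPM (counts scaled to library size) in scrambled and 51.7 to 61.8 CPM in siGLUT2 cells. SLC34A1 had 2, 4, 0 and 2 counts in scrambled and 0 in each siGLUT2 library. SLC5A2 was at 1.41 against 1.75 CPM and did not pass the test. AQP1 had 8 counts, all in siGLUT2 replicate 2, and ANPEP had 4, all in siGLUT2 replicate 3. All 6 epithelial markers were detected, and their summed level was 1128 to 1240 CPM in scrambled and 634.9 to 767.1 CPM in siGLUT2 libraries, with KRT7, KRT8, KRT18 and KRT19 falling and EPCAM at 98.65 ± 6.80 (SD, n = 4) against 99.45 ± 23.8 CPM (SD, n = 3). CDH1 was at 3.15 against 0.81 CPM, with groups that did not overlap, and did not pass the test. Of 8 fibroblast and pericyte markers, 7 were detected and summed to 11.8 to 15.2 CPM against 37.9 to 46.2 CPM, most of the difference being LUM at 1.86 against 23.9 CPM. COL1A1 also rose, PDGFRB was at 1.70 against 1.24 CPM and did not pass the test, THY1 had 2 and 3 counts in scrambled replicates 2 and 4 and 0 in the other libraries, COL3A1 was at 0 and DCN had 1 count in all. The 6 endothelial markers summed to at most 0.432 CPM with PECAM1, CDH5, VWF, KDR and TEK at 0, the 6 leukocyte markers to 13.8 to 18.6 against 25.9 to 28.5 CPM with PTPRC, CD3E, LYZ and MS4A1 at 0, and the 4 podocyte markers to 3.92 to 5.28 against 1.15 to 1.54 CPM with NPHS1 and WT1 at 0. The leukocyte sum was nearly all CD68, at 14.99 against 25.93 CPM, and the podocyte sum nearly all PLA2R1, at 4.80 against 1.26 CPM. The part of these shifts in the values below was not tested.

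On the genome (GRCh38, GENCODE release 29), 4 of the members lie in neighbouring pairs. IGFBP1 (ENSG00000146678, chr7:45888357-45893668, plus strand) and IGFBP3 (ENSG00000146674, chr7:45912245-45921874, minus strand) end towards each other with 18576 bases between them, and IGFBP2 (ENSG00000115457, chr2:216632828-216664436, plus strand) and IGFBP5 (ENSG00000115461, chr2:216672105-216695525, minus strand) likewise with 7668 bases between them. IGFBP4 (ENSG00000141753) lies at chr17:40443461-40457731 (plus strand), IGFBP6 (ENSG00000167779) at chr12:53097436-53102345 (plus strand), IGFBP7 (ENSG00000163453) at chr4:57030773-57110385 (minus strand) and PAPPA (ENSG00000182752) at chr9:116153804-116402322 (plus strand). In each neighbouring pair, at most 1 gene was expressed above a few counts here: IGFBP3 was, IGFBP1 was not, and neither IGFBP2 nor IGFBP5 was.

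RefSeq promoter entries (GRCh38.p14) were found for 6 of the 8 members. The 250 bases before the start are shown for 3 of them, as the member with the largest fold difference between groups (IGFBP3) and the enzyme (PAPPA) with its substrate (IGFBP4). Each is written 5′ to 3′ on the gene's own strand, and capitals mark TATAAA or TGTTTAC, the latter a core letter string of forkhead (FOXO) sites.
IGFBP3 (chr7:45921273-45921522, minus strand): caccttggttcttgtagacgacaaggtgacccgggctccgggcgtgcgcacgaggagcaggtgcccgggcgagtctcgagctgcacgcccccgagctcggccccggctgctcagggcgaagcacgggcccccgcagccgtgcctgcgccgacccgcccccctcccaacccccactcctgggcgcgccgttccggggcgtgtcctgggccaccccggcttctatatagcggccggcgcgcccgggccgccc
IGFBP4 (chr17:40443200-40443449, plus strand): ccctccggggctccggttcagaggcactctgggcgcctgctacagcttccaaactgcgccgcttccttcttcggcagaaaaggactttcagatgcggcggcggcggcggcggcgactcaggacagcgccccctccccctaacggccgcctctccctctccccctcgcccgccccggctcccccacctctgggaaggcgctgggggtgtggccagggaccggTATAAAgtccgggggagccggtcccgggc
PAPPA (chr9:116153541-116153790, plus strand): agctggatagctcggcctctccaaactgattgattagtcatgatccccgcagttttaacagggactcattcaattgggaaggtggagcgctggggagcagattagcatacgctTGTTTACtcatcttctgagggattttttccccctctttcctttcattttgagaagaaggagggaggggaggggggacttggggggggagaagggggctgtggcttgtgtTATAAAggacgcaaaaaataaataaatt
The IGFBP3 window precedes the RefSeq start, and it lies inside the gene span given above because another GENCODE transcript of the gene begins farther upstream and holds the window in an intron. The IGFBP3 window was 76% G or C with 32 CG dinucleotides and held neither exact string. Variants, such as the tatata near its end, were not searched for. The IGFBP4 window was 71.6% G or C with 24 CG dinucleotides and had TATAAA at -29, counted from the start. The PAPPA window was 48% G or C with 5 CG dinucleotides and had TATAAA at -28 and TGTTTAC at -137. Searched on both strands, TATAAA was in 10.7% and TGTTTAC in 2.98% of 35116 promoter windows of this length. Counts of transcript ends do not show which start was used.

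Levels above and below are TMM-scaled CPM from a 3′ method that reads each transcript near its end, so they are not divided by gene length. In scrambled cells the order of mean levels was IGFBP7, IGFBP3, PAPPA, IGFBP6, IGFBP4 and IGFBP5, with IGFBP1 and IGFBP2 at 0. PAPPA and IGFBP6 overlapped in that order, and the other neighbouring pairs from IGFBP7 down to IGFBP5 did not. In siGLUT2 cells the order was IGFBP7, PAPPA, IGFBP6, IGFBP3 and IGFBP4: IGFBP3 was now the fourth and lay below IGFBP6 in all 3 libraries, whereas it lay above IGFBP6 in all 4 scrambled libraries. PAPPA and IGFBP6 again overlapped.

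**Figure D1:**
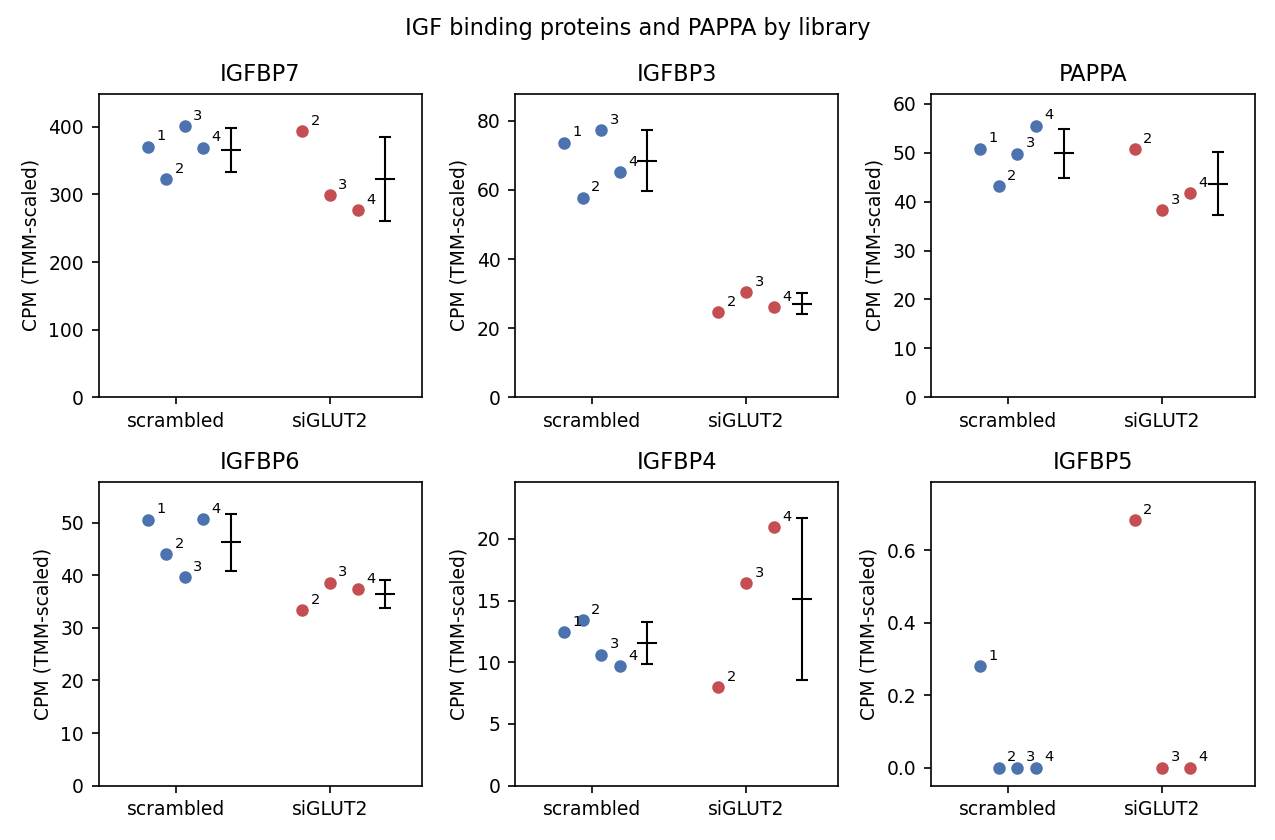
Level of the 6 detected members in each library (y axes, TMM-scaled CPM, each from 0 or just below; points numbered by replicate, bars mean ± SD, left out for IGFBP5, which has 6 counts in all). IGFBP3 is the member with the widest gap between the ranges of its groups, at 57.8 to 77.3 against 24.6 to 30.4 CPM.

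IGFBP3, the main carrier of IGFs in blood and also a secreted growth inhibitor, was lower after siGLUT2. Its level was 73.7, 57.8, 77.3 and 65.3 CPM in scrambled replicates 1 to 4 and 24.6, 30.4 and 26.1 CPM in siGLUT2 replicates 2 to 4. Every siGLUT2 library lay below every scrambled library, with a wide gap between the groups. The mean was 68.5 ± 8.74 CPM (SD, n = 4) against 27.0 ± 3.03 CPM (SD, n = 3), a log2 fold change of -1.34 ± 0.16 (SE), or 2.53-fold lower. As deposited counts this was 526, 482, 611 and 370 against 144, 211 and 167. In bulk RNA, fewer cells that express a gene and less RNA per cell cannot be told apart. Leaving out any 1 library gave values between -1.43 and -1.27.

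IGFBP6, which prefers IGF2 to IGF1, was at 50.6, 44.0, 39.7 and 50.6 CPM in scrambled and 33.4, 38.6 and 37.4 CPM in siGLUT2 libraries. The groups did not overlap, but scrambled replicate 3 and siGLUT2 replicate 3 were about 1 CPM apart. The mean was 46.2 ± 5.34 (SD, n = 4) against 36.5 ± 2.71 CPM (SD, n = 3), a log2 fold change of -0.34 ± 0.16 (SE).

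IGFBP4, an inhibitor of IGF action until it is cut, was at 12.5, 13.4, 10.6 and 9.70 CPM in scrambled and 8.02, 16.4 and 20.9 CPM in siGLUT2 libraries. The siGLUT2 libraries spanned the scrambled range, with replicate 2 below all scrambled libraries and replicates 3 and 4 above them. The mean was 11.6 ± 1.70 (SD, n = 4) against 15.1 ± 6.57 CPM (SD, n = 3), with a coefficient of variation of 14.7% against 43.4%. The log2 fold change was 0.39 ± 0.30 (SE). Without siGLUT2 replicate 2 it was 0.69 and without siGLUT2 replicate 4 it was 0.08.

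IGFBP7, the most abundant member, was at 370.7, 322.5, 401.6 and 369.5 CPM in scrambled and 393.3, 298.6 and 276.8 CPM in siGLUT2 libraries. Replicates 3 and 4 of siGLUT2 lay below all scrambled libraries, while replicate 2 lay among them. The mean was 366 ± 32.6 (SD, n = 4) against 323 ± 61.9 CPM (SD, n = 3), a log2 fold change of -0.18 ± 0.11 (SE). Without siGLUT2 replicate 4 it was -0.09 and without siGLUT2 replicate 2 it was -0.35, and of the 14 settings tried IGFBP7 was past the threshold in the latter alone. The gene overlaps POLR2B on the opposite strand, which had 6205 counts over the 7 libraries. The 2 genes were counted separately. Because the strand setting of the counting is not known here, how reads from the stretch they share were counted is not known either.

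PAPPA was at 50.9, 43.2, 49.8 and 55.6 CPM in scrambled and 50.8, 38.3 and 41.7 CPM in siGLUT2 libraries. As for IGFBP7, siGLUT2 replicate 2 lay within the scrambled range and replicates 3 and 4 lay below it. The mean was 49.9 ± 5.11 (SD, n = 4) against 43.6 ± 6.46 CPM (SD, n = 3), a log2 fold change of -0.19 ± 0.16 (SE), with values from -0.32 to -0.11 when 1 library was left out. Its antisense transcripts PAPPA-AS1 and PAPPA-AS2 had 0 and 2 counts in all. Of the siGLUT2 libraries, replicate 2 thus held the lowest IGFBP4 and the highest IGFBP7 and PAPPA.

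The other 3 members had too few counts to be tested. IGFBP5, the other main PAPPA substrate, had 2 counts in scrambled replicate 1, 4 counts in siGLUT2 replicate 2 and 0 in the other libraries. IGFBP1, a liver product that insulin represses, and IGFBP2, an IGF carrier rich in fetal tissue, had 0 counts in all 7 libraries. A count of 0, taken as at most 3 counts over each group, allows up to 0.103 CPM in scrambled and 0.156 CPM in siGLUT2 cells, for counting error only.

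Of the 8 members, 1 of the 5 tested passed the adjusted threshold of 0.05 as lower (IGFBP3) and 0 as higher, by the quasi-likelihood test of edgeR after Benjamini-Hochberg adjustment. DESeq2 also called 1, and 2 had an unadjusted p under the same value. Over all tested genes 28.3% were called, 13.9% as higher and 14.4% as lower. For 2 members (IGFBP3 and IGFBP6) the CPM of the groups did not overlap, both being lower, against 35.1% of all tested genes in either direction and 17.9% as lower. Since the members were chosen on this contrast, nothing is read from these shares.

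**Figure D2:**
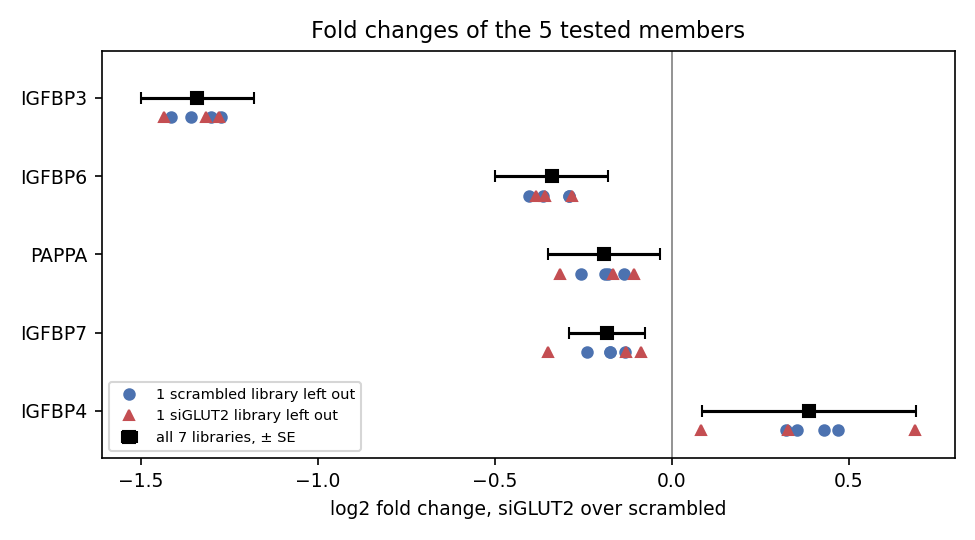
Log2 fold change of siGLUT2 over scrambled (x axis) for the 5 tested members, with all 7 libraries (squares, bars ± SE) and with 1 scrambled (circles) or 1 siGLUT2 (triangles) library left out. IGFBP3 stays between -1.43 and -1.27, while IGFBP4 spreads from 0.08 to 0.69.

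The summed level of the 8 members was 542 ± 42.6 CPM (SD, n = 4) in scrambled and 445 ± 57.5 CPM (SD, n = 3) in siGLUT2 cells. The difference of means was -43.2 CPM for IGFBP7, whose groups overlapped, and -41.5 CPM for IGFBP3. IGFBP7 made up 67.5 ± 1.30% of the summed counts in scrambled and 72.1 ± 4.34% in siGLUT2 cells. The share of IGFBP3 was 12.6 ± 0.777% against 6.16 ± 1.23%, that of PAPPA 9.20 ± 0.633% against 9.80 ± 0.657%, that of IGFBP6 8.57 ± 1.14% against 8.32 ± 1.54% and that of IGFBP4 2.16 ± 0.473% against 3.55 ± 1.84% (SD, n = 4 and 3). PAPPA and IGFBP6 thus held about the same share in both groups, and the IGFBP3 share was lower in every siGLUT2 library than in every scrambled one.

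**Figure D3:**
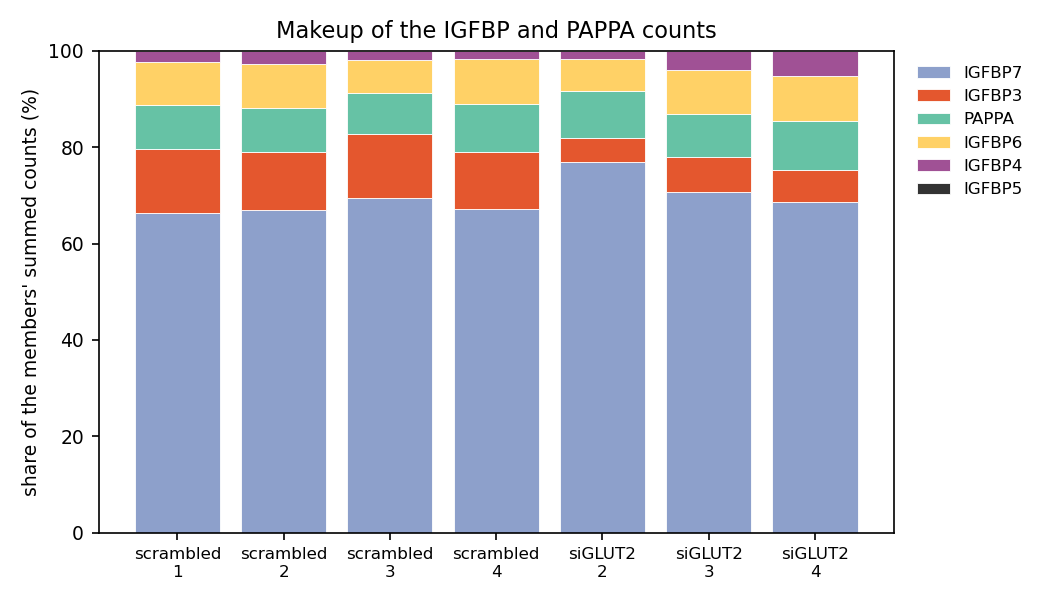
Share of the summed counts of the 8 members (y axis, percent) in each of the 7 libraries (x axis, group and replicate). The IGFBP3 band averages 12.6% in scrambled and 6.16% in siGLUT2 libraries; IGFBP5 is too small to see, and IGFBP1 and IGFBP2 are at 0.

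The high-affinity binding proteins IGFBP1 to IGFBP6 summed to 126 ± 8.94 CPM (SD, n = 4) in scrambled and 78.9 ± 10.6 CPM (SD, n = 3) in siGLUT2 cells, a difference of -47.5 CPM. IGFBP3 accounted for -41.5 CPM of it, IGFBP6 for -9.76 CPM and IGFBP4 for 3.57 CPM. IGFBP3 was 53.8, 50.2, 60.6 and 52.0% of that sum in scrambled and 36.8, 35.6 and 30.9% in siGLUT2 libraries. The ratio of IGFBP7 to IGFBP3 counts was 5.03, 5.58, 5.20 and 5.66 in scrambled and 16.0, 9.82 and 10.6 in siGLUT2 libraries. The ratio of PAPPA to IGFBP4, the enzyme to its substrate, was 4.08, 3.21, 4.69 and 5.73 against 6.34, 2.33 and 1.99, with siGLUT2 replicate 2 above and replicates 3 and 4 below all scrambled libraries.

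The genes most like each member over the 7 libraries were found by the root mean square difference of log2 CPM, after each gene was centred on its scrambled mean, among 12403 other tested genes. TFDP1 and DZIP3 were nearest to IGFBP3, at 0.10 and 0.11 on the log2 scale, with log2 fold changes of -1.31 and -1.42. CYB5RL and ZNF408 were nearest to IGFBP4 (0.12 and 0.14), NBEAL1 and ESYT1 to IGFBP6 (0.052 and 0.060), INF2 and FBXW11 to IGFBP7 (0.058 and 0.059) and HSPA4L and USP33 to PAPPA (0.051 and 0.061). Both groups enter this measure, so a like difference between the groups already brings genes near each other.

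The other genes of the IGF system were read in 7 lists that hold 72 genes, each counted once, of which 44 were tested. By edgeR's quasi-likelihood test, adjusted over all 12404 genes, 16 rose and 5 fell, and 23 did not pass. Their median log2 fold change was 0.32, beside -0.0029 for all tested genes. DESeq2 gave 16 and 5 as well. Beside these and the list counts below, 13.9% of all tested genes were called higher and 14.4% lower. The lists were chosen with earlier results of these data known. Their counts, medians and p-values are thus a description, and nothing is read from the shares.

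The RNA of the ligands was almost absent from these cells. Ligand protein, including any brought by the serum or the supplement ITS, was not measured. IGF2, INS and the acid-labile subunit IGFALS, which joins IGF and IGFBP3 in the blood complex, had 0 counts in every library, and IGF1 had 0, 0, 2 and 4 counts in scrambled and 0 in each siGLUT2 library. None of the 4 genes of this list could be tested.

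Of 10 receptors and adaptors, 8 were tested, 3 fell and 1 rose, with a median log2 fold change of -0.21. The insulin receptor INSR fell from 23.2 ± 1.28 to 7.05 ± 2.45 CPM (SD, n = 4 and 3; log2 fold change -1.71 ± 0.27, edgeR adjusted p = 5.53e-05). The adaptor proteins that carry the signal inside the cell went opposite ways: IRS2 fell from 212 ± 18.8 to 84.5 ± 15.5 CPM (-1.33 ± 0.12 log2, edgeR adjusted p = 4.55e-08), and IRS1 rose from a range of 27.5 to 32.1 CPM to one of 46.0 to 64.8 CPM (0.95 ± 0.16 log2, edgeR adjusted p = 0.000139). IGF2R, which clears IGF2 and sorts lysosomal enzymes, fell by 0.51 ± 0.13 on the log2 scale (edgeR adjusted p = 0.00409). IGF1R, the receptor that the binding proteins keep IGF from, was singled out after its values were seen. It was at 51.4, 55.9, 48.3 and 59.6 CPM in scrambled and 51.0, 55.6 and 89.1 CPM in siGLUT2 libraries (0.28 ± 0.17 log2, edgeR adjusted p = 0.238), and its adjusted p was 0.0496 without siGLUT2 replicate 2, when 2 genes of this list were called higher.

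Among the relatives and inhibitors of PAPPA, 1 of 4 genes was tested. STC2, an inhibitor of PAPPA, rose from 67.1 ± 16.2 to 122 ± 12.0 CPM (SD, n = 4 and 3; 0.86 ± 0.15 log2, edgeR adjusted p = 0.000146). The related protease PAPPA2 had 2, 11, 1 and 1 counts against 9, 7 and 5 counts, and STC1 had 4 counts in 1 scrambled library and 0 in the others.

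Of 15 other proteases reported to cut IGF binding proteins, 10 were tested, 6 rose and 1 fell, with a median log2 fold change of 1.09. With the replicate block, or without scrambled replicate 1, 4 genes of this list were called higher. PLAT and PLAU, the plasminogen activators, rose from 10.3 ± 1.25 to 56.2 ± 7.29 CPM (2.45 ± 0.19 log2, edgeR adjusted p = 2.98e-09) and from 80.1 ± 21.4 to 260 ± 39.5 CPM (1.70 ± 0.16 log2, edgeR adjusted p = 9.6e-08). The lysosomal protease CTSD rose by 0.60 ± 0.13 on the log2 scale (edgeR adjusted p = 0.0013), although its lowest siGLUT2 library lay within the scrambled range. MMP7, a matrix metalloprotease of injured tubules, fell from 54.6 ± 3.74 to 15.7 ± 1.58 CPM (-1.80 ± 0.17 log2, edgeR adjusted p = 8.33e-08). PLG, the substrate of PLAT and PLAU, was in the same list, had 0 counts in every library and was not tested.

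Of 13 other proteins that carry an IGFBP-type domain, 7 were tested, 3 rose and 0 fell by both edgeR and DESeq2, where 4 had an unadjusted edgeR p under 0.05 in either direction, and the median log2 fold change was 0.69. The matricellular proteins CCN1 and CCN3 rose from 589 ± 74.5 to 1017 ± 116 CPM (0.79 ± 0.10 log2, edgeR adjusted p = 2.01e-06) and from 9.31 ± 0.935 to 23.5 ± 5.59 CPM (1.34 ± 0.25 log2, edgeR adjusted p = 0.000322). HTRA1, a secreted serine protease that is also in the protease list, rose by 0.88 ± 0.31 log2 (edgeR adjusted p = 0.0351). Its adjusted p was 0.0958, 0.0948 and 0.073 when scrambled replicate 1, 2 or 4 was left out, and 0.157 when siGLUT2 replicate 4 was.

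Of 14 cell surface and matrix partners of the binding proteins, 10 were tested, 4 rose and 1 fell, with a median log2 fold change of 0.16. Fibronectin (FN1), which IGFBP3 and IGFBP5 can bind, rose from 370 ± 32.8 to 1092 ± 50.8 CPM (SD, n = 4 and 3; 1.56 ± 0.08 log2, edgeR adjusted p = 9.45e-12), and the fibronectin receptor subunit ITGA5 rose from 36.5 ± 6.51 to 124.5 ± 19.6 CPM (1.77 ± 0.15 log2, edgeR adjusted p = 1.22e-08). Caveolin-1 (CAV1), a membrane scaffold linked to IGFBP3 uptake, fell from 710 ± 13.1 to 408.5 ± 22.3 CPM (-0.80 ± 0.08 log2, edgeR adjusted p = 8.9e-08). Osteopontin (SPP1) rose by 0.24 ± 0.08 log2 (edgeR adjusted p = 0.0196), and its adjusted p was 0.0695 without scrambled replicate 2 and 0.0615 without siGLUT2 replicate 3. Without scrambled replicate 2, or with the replicate block, 2 genes of this list were called higher. Without siGLUT2 replicate 4, 2 were called lower.

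FOXO factors are transcription factors that insulin and IGF signalling holds out of the nucleus. Of 14 FOXO genes and targets, 9 were tested, 2 rose and 0 fell by both edgeR and DESeq2, where 3 had an unadjusted edgeR p under 0.05 in either direction, and the median log2 fold change was 0.37. TRIB1, a pseudokinase, rose from 58.9 ± 8.73 to 119 ± 7.48 CPM (1.02 ± 0.13 log2, edgeR adjusted p = 3.4e-06), and FBXO32, a ubiquitin ligase, from 115.5 ± 16.7 to 172 ± 21.6 CPM (0.58 ± 0.12 log2, edgeR adjusted p = 0.000814). The other 7 did not pass. FOXO3, FOXO4, PDK4 and SESN1 had log2 fold changes of 0.20, 0.37, 1.55 and 1.11. CITED2, CCNG2 and BCL6 had -0.18, -0.19 and -0.13. Activity of the FOXO factors was not tested.

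**Figure D4:**
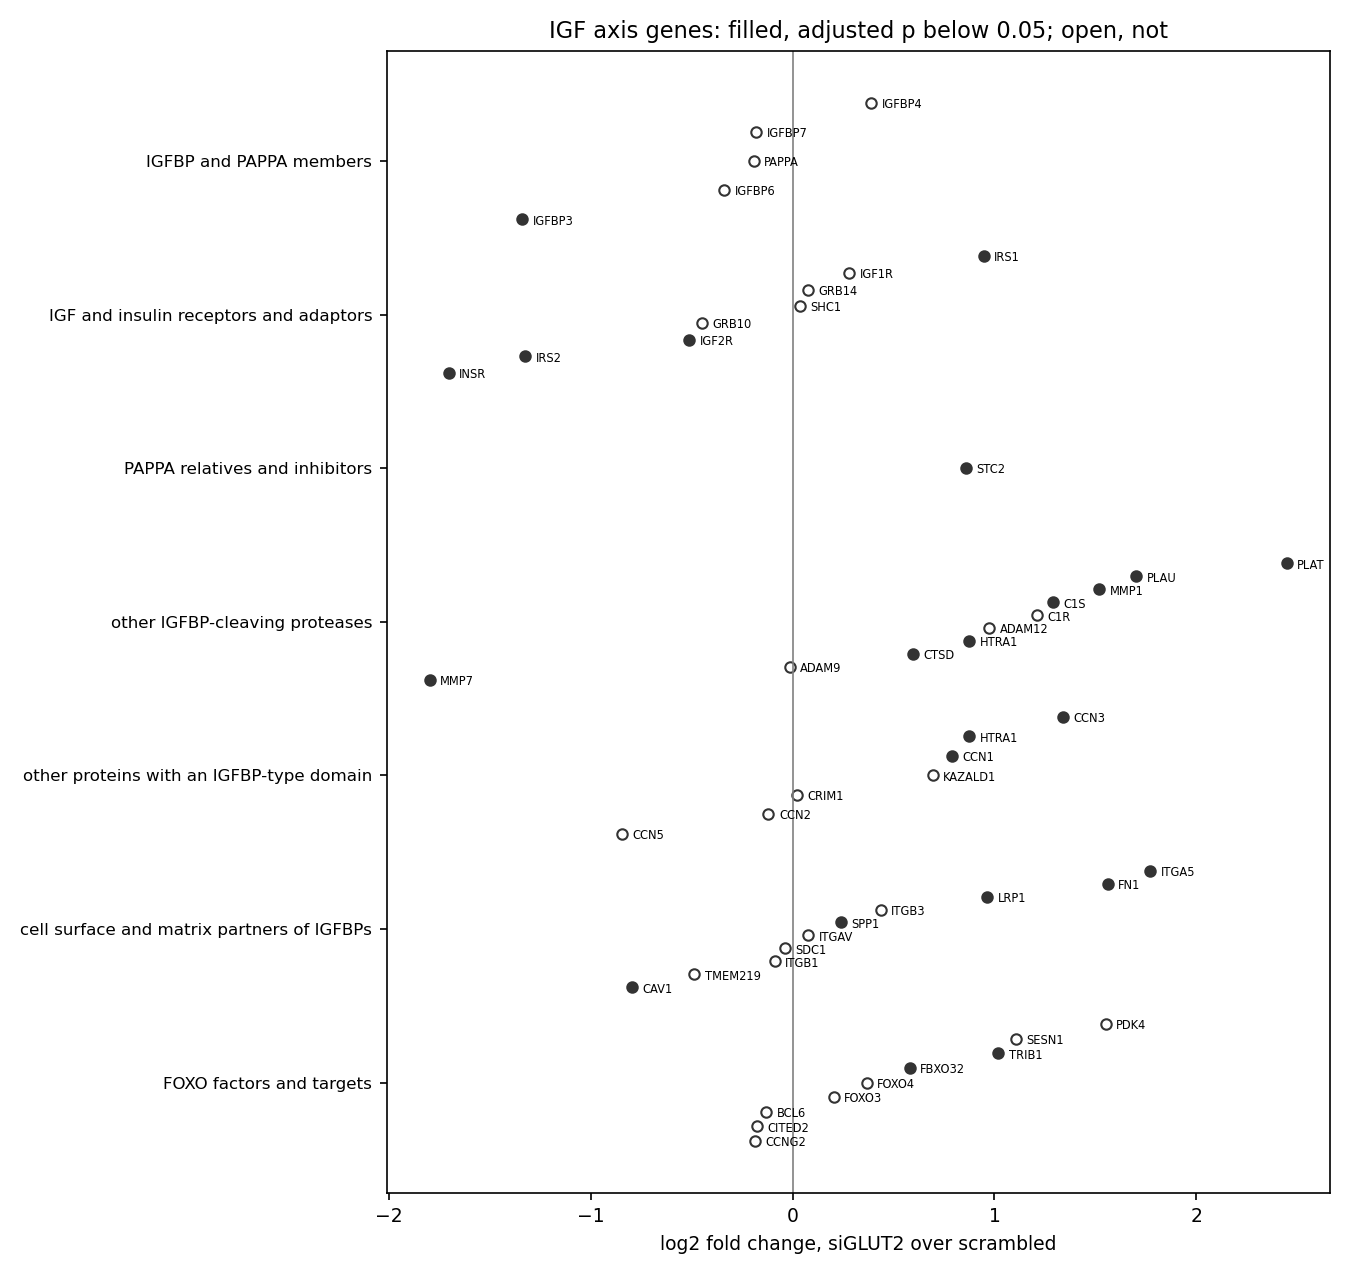
Log2 fold change of siGLUT2 over scrambled (x axis) for the 5 tested members and the tested genes of 6 lists (rows), filled where the edgeR adjusted p was below 0.05 and open otherwise. In the protease row 6 genes lie filled to the right and MMP7 alone filled to the left, and in the receptor row IRS1 and IRS2 lie on opposite sides of 0; HTRA1 appears in 2 rows.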

How the data were processed

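Total RNA of HK-2 cells went through a commercial 3′ digital mRNA-seq service with single-end reads, per the labels' protocols. The authors deposited raw counts per gene for 7 libraries, and the submitters' processing notes name STAR, HTSeq, edgeR and hg38 without version or role. Not given in the sources used here are the annotation release, the strand setting and whether molecular identifiers were used. The floors for counts of 0 cover counting error only.

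Groups came from the sample titles. siGLUT2 was compared with scrambled over all 7 libraries in edgeR 4.0.16 (R 4.3.3): genes were kept by filterByExpr with a minimum count of 10 and a minimum total of 15, libraries were scaled by TMM, and a robust glmQLFit was tested with glmQLFTest, with no covariate and with Benjamini-Hochberg adjustment over 12404 genes. The standard error is the log2 fold change divided by the square root of F. Alternatives were DESeq2 1.42.0, other scalings, filters and thresholds, a replicate block, and each library left out.

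Members and lists were chosen with earlier results of these data known. Named are all 8 members, up to 4 called genes per list with the smallest adjusted p (where fewer than 2 were called, up to 2 with the highest CPM), for each member whose own mean was at least 10 CPM the 2 tested genes nearest to it at any level, SLC2A2, and cell type markers. The tested genes of the FOXO list that were not called are named too. Sequences came from RefSeq and gene positions from GENCODE.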

Additional observations from a re-analysis of the deposited data

How the results depend on the processing

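The log2 fold changes of the 5 tested members kept their sign under each of the 14 settings tried (DESeq2, 3 other scalings, 2 other filters, a replicate block and each of 7 libraries left out). IGFBP3 was called in all 14, and IGFBP4, IGFBP6 and PAPPA in none. Leaving out 1 library gave 1 to 2 members called lower, the 2 arising without siGLUT2 replicate 2, when IGFBP7 was called. Over all genes, 1723 were called higher and 1786 lower, against 1097 and 1167 at an adjusted p below 0.01, and 1107 higher by glmTreat against 1.2-fold. With the replicate block, 1242 genes were called higher and 1407 lower, 1 member lower, and 12 list genes higher and 5 lower. HTRA1 and SPP1 then had adjusted p = 0.134 and 0.0617. Same-numbered libraries did not deviate together over all tested genes (correlations over genes of 0.0095, 0.0152 and -0.0032). With so few pairs, this cannot exclude that libraries of the same number were handled together. IGFBP1, IGFBP2 and IGFBP5 are limited by depth, and a level below the stated floors cannot be seen here.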
